A study of Mus musculus with 22 samples.

Results

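The genes described here are 49 genes that copy DNA during S phase or regulate or accompany that copying. They were followed in mouse hearts with a conditional knockout (cKO) of Prdm16, which encodes a zinc finger transcription factor. They were chosen by name, as the named components of origin licensing, origin firing, the replication fork, deoxynucleotide supply and replication-coupled chromatin assembly, out of 54356 annotated genes. RNA was measured by bulk sequencing in 22 libraries of C57BL/6 hearts at embryonic day E13.5, in 6 groups. These were 3 whole hearts, 4 left ventricles and 4 right ventricles labelled Prdm16 conditional knockout, and equal numbers of control libraries from littermates. The controls are named WT in the sample titles. The promoter or driver of the recombinase and the Prdm16 allele are not given in the sources used here, so the cells in which the gene was deleted cannot be stated. The libraries are numbered within each group. The labels do not say how many animals each library came from, so p-values measure the spread between these libraries.

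DNA replication starts at origins, where a recognition complex loads the ring-shaped MCM helicase in G1 and kinases then switch it on in S phase. The fork that follows needs primase and polymerases, a sliding clamp with its loader, single-strand binding protein, a nuclease and a ligase for the lagging strand, and a supply of deoxynucleotides. Many of these genes are transcribed under E2F factors, and cardiomyocytes of the midgestation ventricle are still dividing, above all in the compact wall.

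All 49 genes had reads in every library, the fewest being 82 reads for Orc1, and all 49 passed the filter on low counts in both the whole hearts and the ventricles. Reads assigned by the authors' quantification numbered 38590751 to 62004017 per whole heart library, and 14508722 to 22830716 per ventricle library. Prdm16 itself had 19.0 to 22.3 CPM in cKO whole hearts against 37.4 to 45.3 in controls, 21.6 to 23.4 in cKO left ventricles against 45.4 to 56.2 in controls, and 22.2 to 25.8 in cKO right ventricles against 37.5 to 44.3 in controls. CPM are counts relative to library size, scaled between libraries by TMM factors, and were scaled separately for whole hearts and ventricles. The cardiomyocyte marker Tnnt2 stood at 4650 to 7270 TPM (a level per transcript length, scaled to a fixed sum per library) over all libraries, while the neural crest marker Sox10 stayed below 1 TPM. A pair of control libraries did not resemble their groups. Right ventricle control 2 had 266 TPM of the cushion mesenchyme gene Postn, where the lowest control of that group had 42.0 TPM. Whole heart control 1 had 19478 genes with at least 1 read against 25499 to 27146 in the other whole hearts. The biological coefficient of variation, edgeR's measure of replicate spread, was 0.184 for whole hearts (0.107 without control 1) and 0.0929 for ventricles (0.0735 without right ventricle control 2). Counts over the 49 genes by test are therefore given with and without them, while CPM overlaps and, except where stated, counts by role use all libraries.

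In the left ventricle the replication genes were broadly lower in the cKO. By edgeR's quasi-likelihood test with Benjamini-Hochberg adjustment over 16448 genes, 26 of 49 fell at an adjusted p below 0.05 and 0 rose, where 13.4% of all genes tested fell and 12.3% rose. The median log2 fold change (cKO over control) was -0.18 over the 49 genes and -0.001 over all genes tested, and 44 of the 49 values lay below 0. The changes were of modest size, between -0.50 for Gmnn and 0.19 for Gins3. In the right ventricle 4 of 49 fell and 0 rose, where 4.19% of all genes fell and 6.12% rose, with a median of -0.08. In whole hearts 2 of 49 fell and 0 rose, where 2.07% of all genes fell and 1.96% rose, with a median of -0.10. A bulk measurement cannot tell fewer cells of a type from less RNA per cell.

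**Figure D1:**
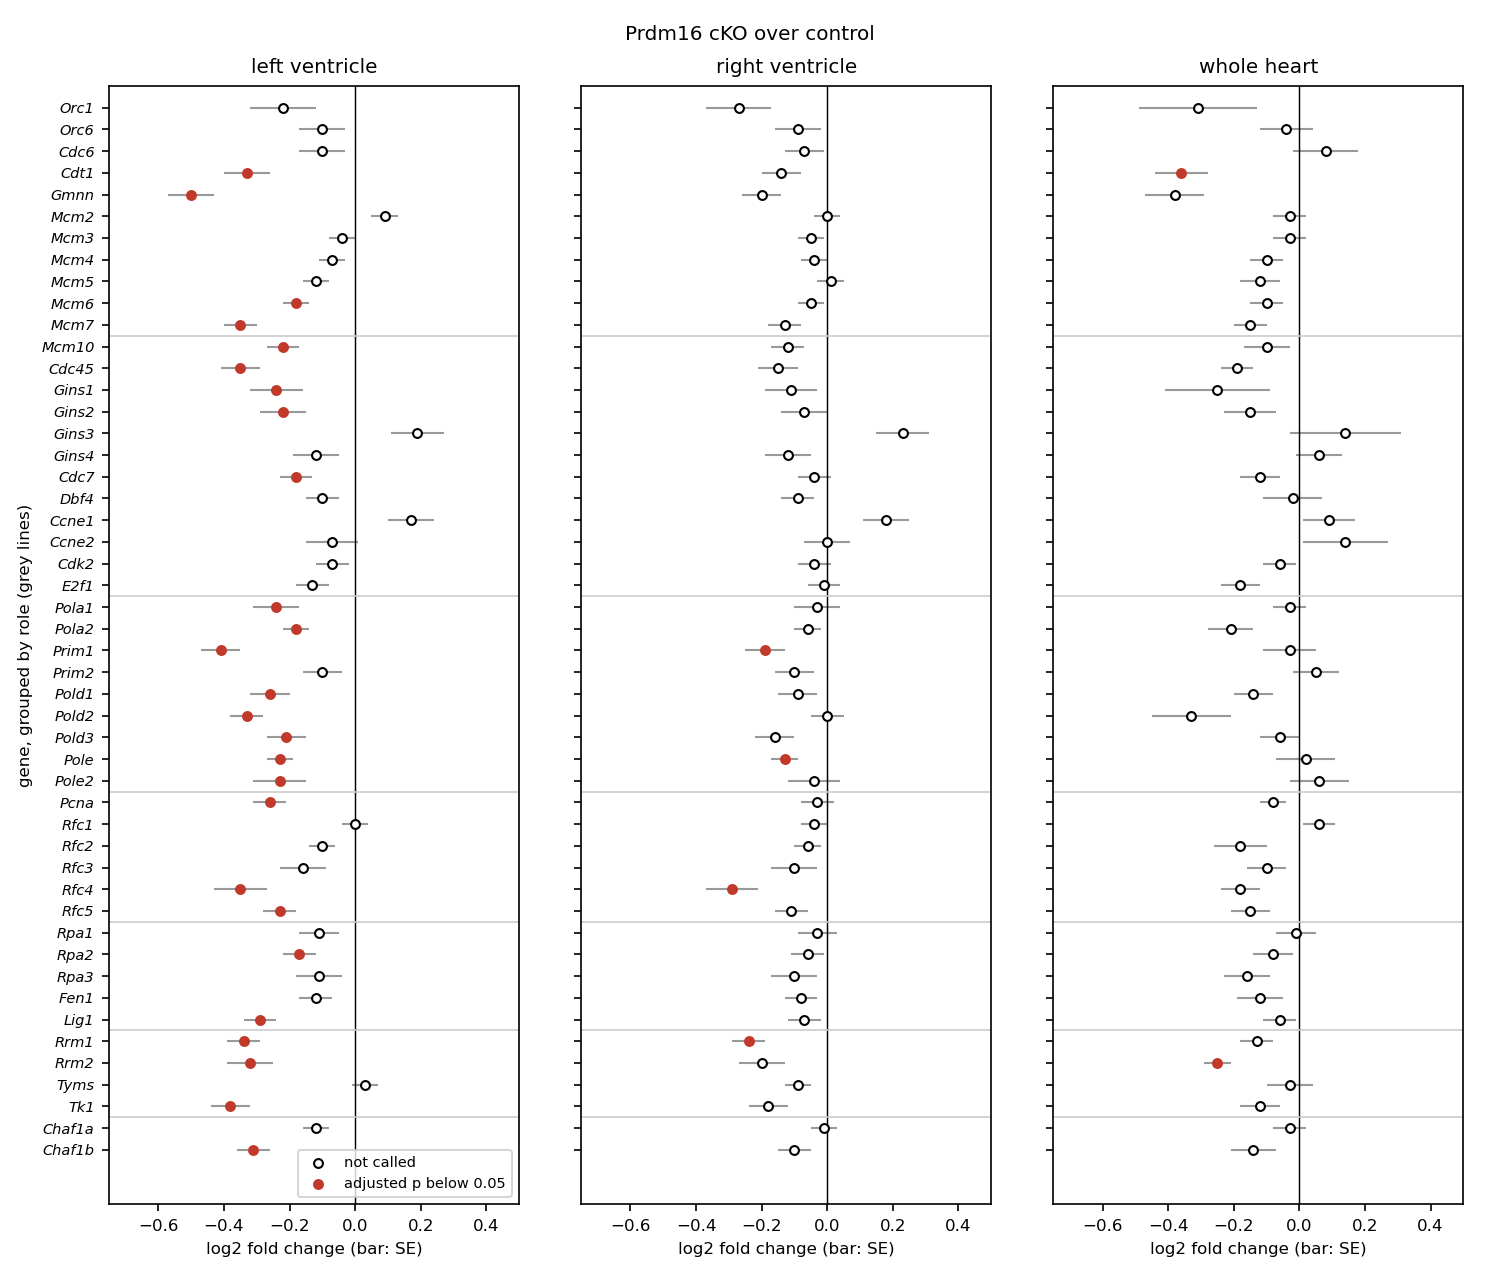
Log2 fold change of each of the 49 replication genes, cKO over control, with its SE (horizontal axis), in the left ventricle, the right ventricle and the whole heart. Filled points passed an adjusted p below 0.05, which was 26 genes in the left ventricle, 4 in the right ventricle and 2 in the whole heart, all to the left of 0.

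Levels per transcript length spanned a wide range. In control left ventricles Pcna, the sliding clamp, was highest at 210 ± 8.85 TPM (SD, n = 4), and Orc1, an origin recognition subunit, was lowest at 3.06 ± 0.452 TPM (SD, n = 4). Ribonucleotide reductase followed Pcna, with Rrm2 at 107 ± 4.28 TPM and Rrm1 at 103 ± 3.11 TPM (SD, n = 4 each), and the values of the pair overlapped. Pcna, Rrm2 and Rrm1 held 184 ± 10.7, 90.7 ± 8.15 and 79.8 ± 3.38 TPM in cKO left ventricles (SD, n = 4 each). The clamp loader gene Rfc2 had 102 ± 1.69 TPM in control left ventricles, close to Rrm1. In cKO left ventricles Rfc2 had 102 ± 4.06 TPM and ranked next to Pcna, above Rrm2 and Rrm1. The calls were not confined to abundant or scarce genes. By control left ventricle TPM, 8 of the 16 highest genes fell (44.8 to 210 TPM, median log2 fold change -0.15), 11 of the middle 17 (20.7 to 42.9 TPM, median -0.21) and 7 of the lowest 16 (3.06 to 20.4 TPM, median -0.16).

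Among the 11 licensing genes, 4 fell in the cKO left ventricle (Gmnn, Mcm7, Cdt1 and Mcm6), 0 rose, and the median log2 fold change was -0.12. Gmnn (ENSMUSG00000006715.11, chromosome 13, 24751845 to 24761923, minus strand, GRCm38) encodes geminin, which holds back re-licensing by binding CDT1. Gmnn had 26.2, 26.6, 26.6 and 27.2 CPM in cKO left ventricles against 38.8, 39.4, 36.5 and 36.1 CPM in controls. The groups lay far apart, and the drop was the largest in log2 terms among the 49 genes in this ventricle (-0.50, SE 0.07, adjusted p = 2.84e-05 by edgeR, a fall by 29.3%). Cdt1 (ENSMUSG00000006585.3, chromosome 8, 122568015 to 122573554, plus strand) is the loading factor that geminin inhibits. Cdt1 had 38.9, 44.4, 39.8 and 39.2 CPM in cKO left ventricles against 47.5, 54.0, 49.2 and 53.0 CPM in controls, with no overlap (log2 fold change -0.33, SE 0.07, adjusted p = 0.00125 by edgeR). In TPM the groups of Cdt1 did overlap (19.6, 25.1, 19.4 and 22.4 in cKO, 22.3, 26.5, 23.0 and 25.2 in controls), and the call was lost with length-scaled counts (adjusted p = 0.0995) and on TPM (adjusted p = 0.26, limma). Reads of Cdt1 and of the same-strand read-through gene Gm20388 (34.0 TPM in control left ventricles) are split by the authors' estimate, so the level of Cdt1 is uncertain.

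The 6 subunits of the MCM2-7 ring, the replicative helicase, were not all called. Mcm7 (ENSMUSG00000029730.16, chromosome 5, 138164583 to 138172422, minus strand) had 127, 135, 126 and 119 CPM in cKO left ventricles against 168, 167, 156 and 156 CPM in controls (log2 fold change -0.35, SE 0.05, adjusted p = 5e-05 by edgeR). Mcm6 fell by 0.18 on the log2 scale (SE 0.04, adjusted p = 0.00395). Mcm5 (-0.12, adjusted p = 0.0707), Mcm4 (-0.07, adjusted p = 0.167) and Mcm3 (-0.04, adjusted p = 0.568) did not pass the test. Mcm2 had 153, 157, 157 and 146 CPM in cKO left ventricles against 147, 144, 146 and 138 CPM in controls, a log2 fold change of 0.09 (SE 0.04, adjusted p = 0.0763). Its groups overlapped, and it was called higher with library totals in place of TMM factors (adjusted p = 0.0179), on TPM (0.0389), without left ventricle cKO 4 (0.0468) and without right ventricle control 2 (0.0446). Mcm7 overlaps Cops6 and Ap4m1 on the other strand and the microRNA genes Mir25, Mir93 and Mir106b on its own. The remaining licensing genes, Orc1 (-0.22), Orc6 (-0.10) and Cdc6 (-0.10), all parts or partners of the origin recognition complex, had adjusted p of 0.128 to 0.317. TPM of Orc1 varied widely between libraries of a group, between 2.47 and 18.5 in cKO left ventricles.

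The RefSeq start regions of 5 licensing genes are shown as examples that hold the letters of the E2F motif, a known shared element of replication genes. The examples include both called and uncalled genes. Each is the 300 bases (250 before the start and 50 after) on the gene's strand, from RefSeq for GRCm38.p6, and capitals mark letters of the motif. The letters searched were TTTCCCGC, TTTCGCGC, TTTGCCGC and TTTGGCGC on both strands, where matches may overlap. Mcm6, Mcm7 and Cdt1 fell in the cKO left ventricle, and Mcm3 and Mcm5 did not pass the test. The licensing genes Orc1 and Cdc6, which did not pass either, also have windows with the letters and are not shown. The windows lie at chr1:128359656-128359955 (Mcm6, minus strand), chr5:138171834-138172133 (Mcm7, minus strand), chr8:122567765-122568064 (Cdt1, plus strand), chr1:20820263-20820562 (Mcm3, minus strand) and chr8:75109259-75109558 (Mcm5, plus strand).
Mcm6: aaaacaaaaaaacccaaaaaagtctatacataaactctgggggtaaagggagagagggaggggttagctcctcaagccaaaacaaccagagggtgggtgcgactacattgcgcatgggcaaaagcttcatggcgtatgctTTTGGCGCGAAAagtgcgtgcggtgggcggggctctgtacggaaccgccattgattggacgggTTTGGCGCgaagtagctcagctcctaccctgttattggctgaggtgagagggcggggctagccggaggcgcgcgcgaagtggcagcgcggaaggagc
Mcm7: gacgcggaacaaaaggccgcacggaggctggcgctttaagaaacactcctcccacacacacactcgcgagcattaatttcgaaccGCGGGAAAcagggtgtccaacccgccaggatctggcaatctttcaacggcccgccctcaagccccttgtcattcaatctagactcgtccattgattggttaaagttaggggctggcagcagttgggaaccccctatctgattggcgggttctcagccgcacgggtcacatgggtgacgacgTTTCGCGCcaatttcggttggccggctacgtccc
Cdt1: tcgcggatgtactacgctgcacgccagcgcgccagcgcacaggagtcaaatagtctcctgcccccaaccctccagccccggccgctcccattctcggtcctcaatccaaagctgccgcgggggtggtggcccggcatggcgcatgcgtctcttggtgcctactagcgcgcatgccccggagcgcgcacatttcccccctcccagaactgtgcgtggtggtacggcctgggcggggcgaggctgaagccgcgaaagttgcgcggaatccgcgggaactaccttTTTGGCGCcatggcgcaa
Mcm3: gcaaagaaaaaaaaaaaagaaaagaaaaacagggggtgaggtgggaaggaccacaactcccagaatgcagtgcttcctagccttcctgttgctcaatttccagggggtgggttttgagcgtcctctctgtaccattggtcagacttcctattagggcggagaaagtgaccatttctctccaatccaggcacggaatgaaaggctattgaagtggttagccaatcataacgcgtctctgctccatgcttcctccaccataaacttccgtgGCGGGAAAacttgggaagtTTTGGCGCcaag
Mcm5: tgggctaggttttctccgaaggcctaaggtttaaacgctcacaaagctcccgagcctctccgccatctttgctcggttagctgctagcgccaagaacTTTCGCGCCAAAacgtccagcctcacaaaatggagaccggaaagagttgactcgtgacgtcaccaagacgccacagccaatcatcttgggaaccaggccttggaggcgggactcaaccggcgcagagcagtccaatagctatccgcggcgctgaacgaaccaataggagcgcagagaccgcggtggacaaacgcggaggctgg
Mcm7 has a second start in the table, whose window holds none of the letters. In the whole set, 40 of 49 genes had a window in the table, some with several starts, giving 46 windows. Of these, 15 (32.6%) hold the E2F letters, against 744 of all 32851 mouse windows (2.26%). The CCAAT letters were in 52.2% of the genes' windows against 37.4% of all windows, and TTTGAA, the core of the cell cycle element of mitotic genes, in 17.4% against 17.9%. The median GC content was 62.7% in the genes' windows and 52.7% in all windows. The E2F letters were in the windows of 8 of the 22 genes that fell in the left ventricle and of 7 of the 18 that were not called. A match is a description of letters in these windows, not a bound site.

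Among the 12 genes of origin firing and helicase activation, 5 fell in the cKO left ventricle (Cdc45, Mcm10, Cdc7, Gins1 and Gins2), 0 rose, and the median log2 fold change was -0.13. Cdc45 (ENSMUSG00000000028.15, chromosome 16, 18780447 to 18811987, minus strand) joins MCM and GINS in the active helicase. Cdc45 had 26.1, 24.3, 25.5 and 24.4 CPM in cKO left ventricles against 33.7, 32.3, 30.3 and 31.3 CPM in controls, without overlap (log2 fold change -0.35, SE 0.06, adjusted p = 0.00028 by edgeR). Mcm10, which helps the helicase start, fell by 0.22 (SE 0.05, adjusted p = 0.00377), and the kinase gene Cdc7 by 0.18 (SE 0.05, adjusted p = 0.0202) on the log2 scale. Of the 4 GINS subunits, Gins1 (-0.24, adjusted p = 0.0325) and Gins2 (-0.22, adjusted p = 0.0316) fell. Gins4 (-0.12) did not pass, and Gins3 lay on the other side of 0.

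Gins3 had 16.5, 17, 15.2 and 17.2 CPM in cKO left ventricles against 13.3, 15.4, 13.4 and 15.6 CPM in controls (log2 fold change 0.19, SE 0.08, adjusted p = 0.091). In the right ventricle Gins3 had 18.5, 19.2, 18.7 and 18 CPM in cKO against 17.7, 13.6, 15.3 and 17.1 CPM in controls. These right ventricle groups did not overlap, yet the test was not passed (0.23, SE 0.08, adjusted p = 0.0799). It was the only gene of the 49 whose cKO libraries all lay above all control libraries in any of the 3 tissues. Cyclin E1 (Ccne1), which drives entry into S phase with CDK2, had log2 fold changes of 0.17 in the left (adjusted p = 0.0922) and 0.18 in the right ventricle (adjusted p = 0.132). Cyclin E2 (Ccne2, -0.07), Cdk2 (-0.07), the CDC7 partner Dbf4 (-0.10) and E2f1 (-0.13), the founding E2F factor, had adjusted p of 0.102 to 0.537 in the left ventricle. In that ventricle Gins3 was called higher without right ventricle control 2 (adjusted p = 0.0428) and on TPM (0.0169), and Ccne1 with library totals (0.0494).

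**Figure D2:**
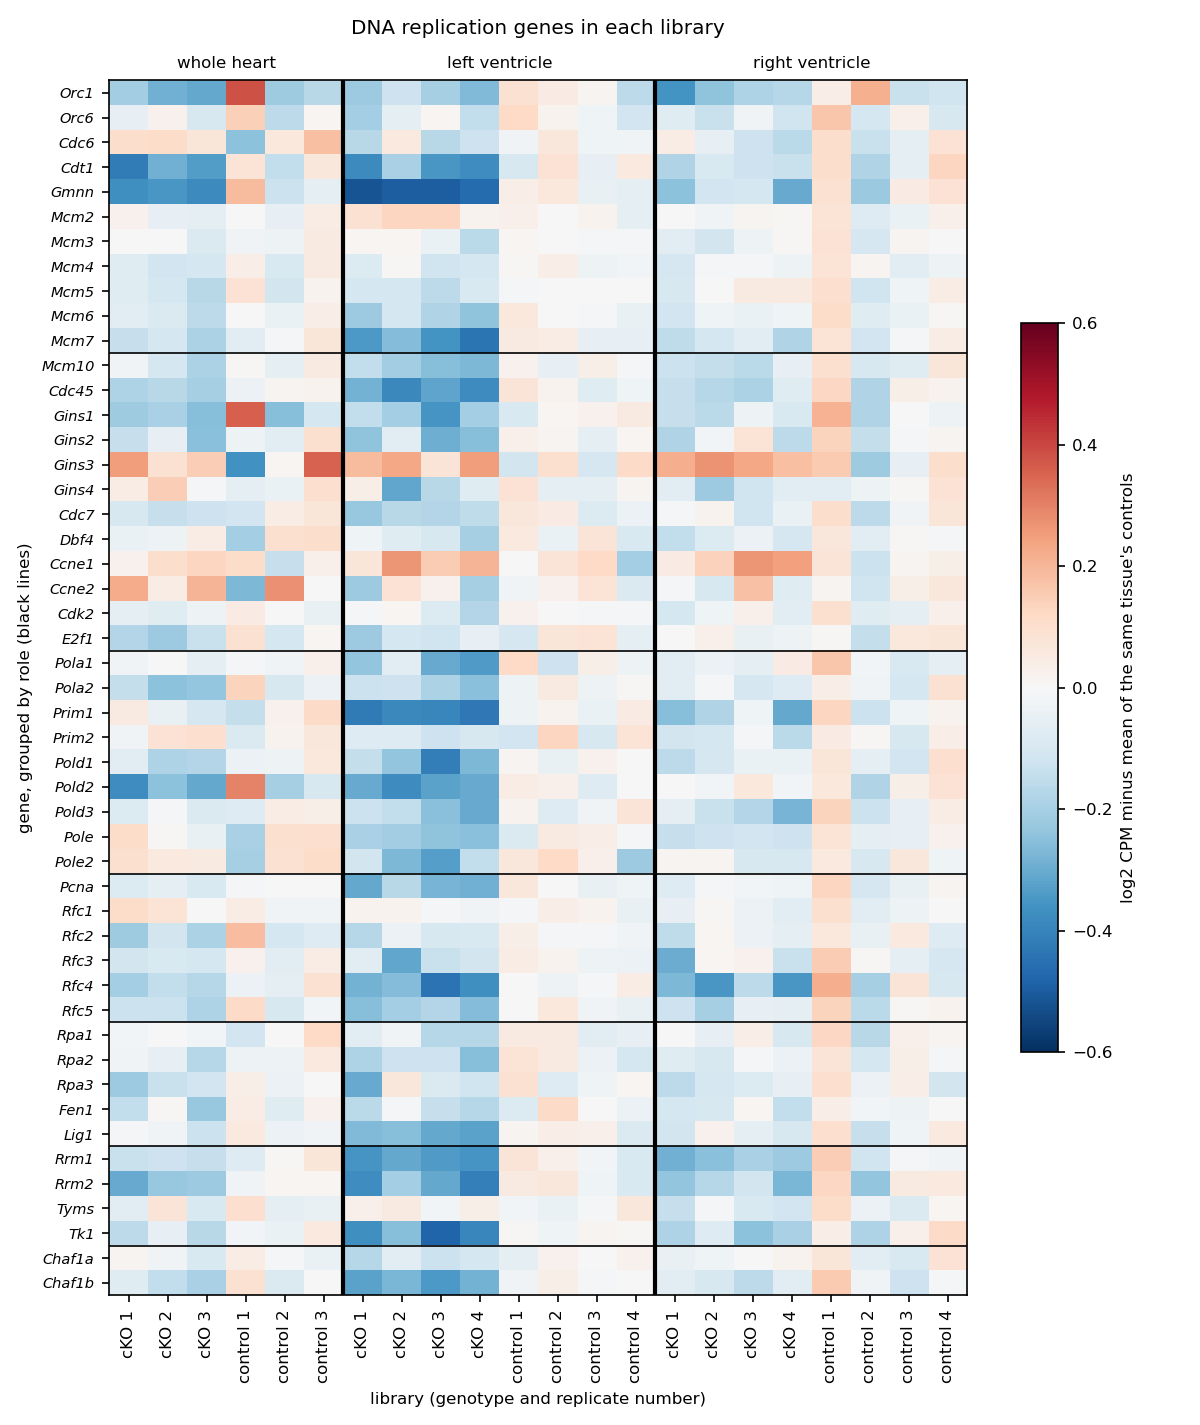
Colour gives log2 CPM of each gene (down, grouped by role) in each of the 22 libraries (across), minus the mean of the controls of the same tissue. The cKO left ventricles are blue in most genes, most deeply in Gmnn (log2 fold change -0.50), while right ventricle control 1 is red in nearly all and Gins3 is red in the cKO libraries of each tissue.

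The 9 genes of the polymerases and primase were the role in which the largest share was called in the left ventricle, with 8 lower, 0 higher and a median log2 fold change of -0.23. Prim1 (ENSMUSG00000025395.14, chromosome 10, 128015168 to 128030037, plus strand) is the catalytic primase subunit, which lays the RNA primer. Prim1 had 24.1, 24.7, 24.6 and 24.0 CPM in cKO left ventricles against 31.8, 32.9, 31.6 and 33.6 CPM in controls. The 4 cKO libraries lay close together and well below all controls (log2 fold change -0.41, SE 0.06, adjusted p = 7.93e-05 by edgeR). Its partner Prim2, the large primase subunit, was the exception (-0.10, SE 0.06, adjusted p = 0.246). The subunits of polymerase alpha that complete the complex fell, Pola1 by 0.24 (adjusted p = 0.0166) and Pola2 by 0.18 (adjusted p = 0.0073) on the log2 scale.

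For polymerase delta, the lagging strand enzyme, all 3 subunits among the 49 genes fell. Pold2 (ENSMUSG00000020471.11, chromosome 11, 5872180 to 5878292, minus strand), an accessory subunit, had 39.3, 37.3, 38.8 and 39.3 CPM in cKO left ventricles against 50.1, 49.7, 46.1 and 48.7 CPM in controls (log2 fold change -0.33, SE 0.05, adjusted p = 0.000159 by edgeR). Pold1, the catalytic subunit, fell by 0.26 (adjusted p = 0.00229) and Pold3 by 0.21 (adjusted p = 0.0191). For polymerase epsilon, the leading strand enzyme, the catalytic subunit Pole (ENSMUSG00000007080.14, chromosome 5, 110286306 to 110337474, plus strand) had 49.8, 49.3, 48.2 and 48.0 CPM in cKO left ventricles against 53.7, 59.4, 58.8 and 56.8 CPM in controls. Pole groups did not overlap (-0.23, SE 0.04, adjusted p = 0.00035). Its second subunit Pole2 also fell (-0.23, SE 0.08, adjusted p = 0.0356), but it shares a strand and position with Gm49384 (8.7 TPM), and its call was lost when any of left ventricle cKO 2 (0.0907), cKO 3 (0.11) or controls 1 (0.0845), 2 (0.114) or 3 (0.0771) was left out.

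Of the clamp and its loader, 3 of 6 fell (Pcna, Rfc4 and Rfc5), 0 rose, and the median was -0.19. Pcna had 133, 147, 136 and 135 CPM in cKO left ventricles against 173, 165, 160 and 162 CPM in controls, without overlap (log2 fold change -0.26, SE 0.05, adjusted p = 0.000523). The loader subunits spread from Rfc4 (-0.35, SE 0.08, adjusted p = 0.0032) to Rfc1, the large subunit, at 0.00 (SE 0.04, adjusted p = 0.97). Rfc4 (35.3 TPM in control left ventricles) overlaps Eif4a2 (353 TPM) on the other strand, and whether they share reads was not tested. Rfc1 had 89.3, 89.3, 87.3 and 86.8 CPM in cKO left ventricles against 87.2, 90.4, 89.2 and 85.2 CPM in controls, so the groups covered the same range. Rfc5 fell by 0.23 (adjusted p = 0.00538), and Rfc2 (-0.10) and Rfc3 (-0.16) did not pass.

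In single-strand binding and fragment joining 2 of 5 fell (Lig1 and Rpa2), 0 rose, and the median was -0.12. Lig1 (ENSMUSG00000056394.17, chromosome 7, 13277283 to 13311433, plus strand) is the ligase that seals Okazaki fragments. Lig1 had 96.3, 96.7, 93.5 and 92.4 CPM in cKO left ventricles against 117, 119, 118 and 109 CPM in controls, without overlap (log2 fold change -0.29, SE 0.05, adjusted p = 0.000295 by edgeR). Rpa2, the middle subunit of the single-strand binding protein, fell by 0.17 (adjusted p = 0.0149). Rpa1 (-0.11), Rpa3 (-0.11) and the flap nuclease Fen1 (-0.12) had adjusted p of 0.075 to 0.329.

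Deoxynucleotide supply split by enzyme, with 3 of 4 genes lower, 0 higher and a median of -0.33. Rrm1 (ENSMUSG00000030978.10, chromosome 7, 102441695 to 102469771, plus strand), the large subunit of ribonucleotide reductase, had 186, 192, 188 and 186 CPM in cKO left ventricles against 251, 243, 235 and 223 CPM in controls (log2 fold change -0.34, SE 0.05, adjusted p = 7.86e-05 by edgeR). Its S-phase partner Rrm2 (ENSMUSG00000020649.11, chromosome 12, 24708241 to 24714146, plus strand) had 155, 174, 162 and 151 CPM in cKO left ventricles against 208, 210, 197 and 188 CPM in controls (-0.32, SE 0.07, adjusted p = 0.00203). Both sets of groups were apart. Tk1 (ENSMUSG00000025574.13, chromosome 11, 117815526 to 117826092, minus strand), the thymidine salvage kinase, had 44.3, 48.0, 41.0 and 43.6 CPM in cKO left ventricles against 57.6, 56.4, 58.0 and 57.6 CPM in controls. Tk1 was the lower in every cKO library (-0.38, SE 0.06, adjusted p = 0.000171). Tyms, thymidylate synthase, which makes the same nucleotide by the other route, had 42.5, 43.2, 41.2 and 42.7 CPM in cKO left ventricles against 41.2, 40.5, 41.3 and 43.6 CPM in controls (0.03, SE 0.04, adjusted p = 0.731), with overlapping groups.

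Of the chromatin assembly factor 1 subunits, which deposit histones behind the fork, Chaf1b fell and Chaf1a did not pass (-0.12, adjusted p = 0.0571), though both fell without right ventricle control 2. Chaf1b (ENSMUSG00000022945.12, chromosome 16, 93883901 to 93906115, plus strand) had 24.5, 25.4, 24.1 and 25.2 CPM in cKO left ventricles against 30.3, 31.5, 30.6 and 30.7 CPM in controls (log2 fold change -0.31, SE 0.05, adjusted p = 0.000244 by edgeR). The CPM groups were far apart, but in TPM they overlapped (26.3, 24.2, 16.1 and 25.5 in cKO, 27.5, 24.0, 25.1 and 29.9 in controls), and the call was lost with length-scaled counts (adjusted p = 0.191) and on TPM (0.412).

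**Figure D3:**
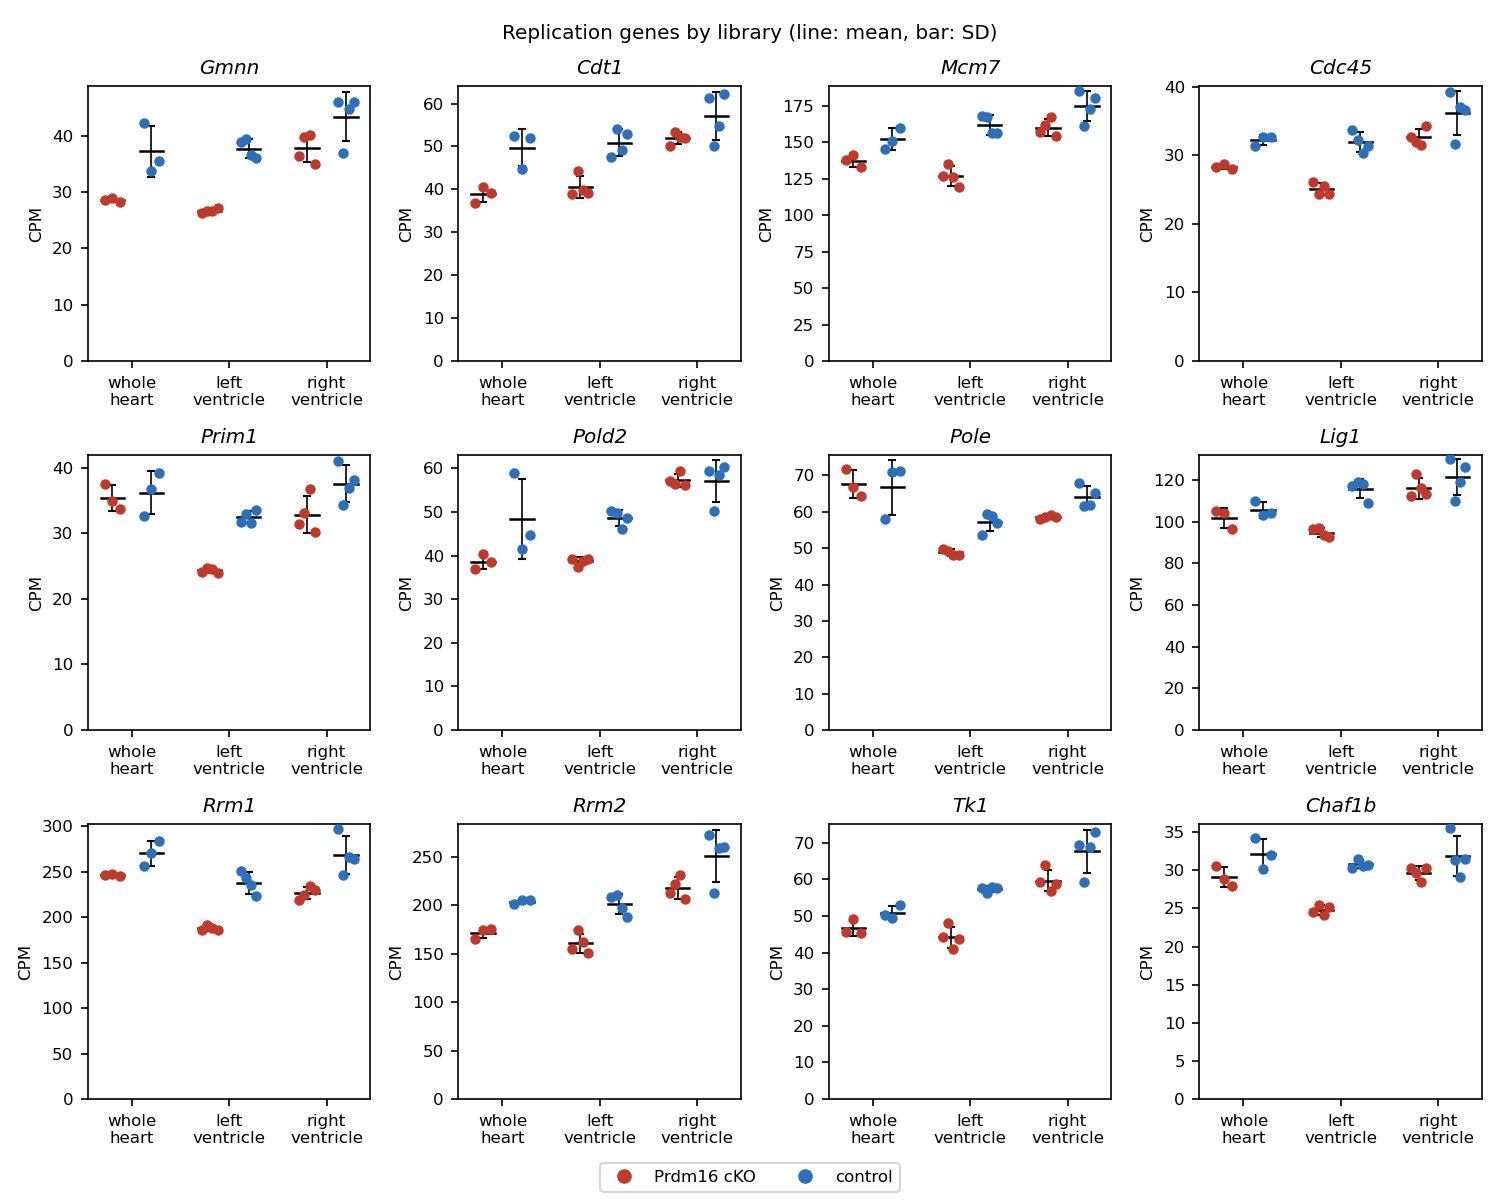
CPM of 12 replication genes in each library (points), with the mean (line) and SD (bar), cKO in red and control in blue. In the left ventricle the cKO points of all 12 lie below the control points, for example 24.0 to 24.7 against 31.6 to 33.6 CPM for Prim1, while in the right ventricle most ranges overlap.

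Over all 49 genes, the CPM ranges of cKO and control left ventricles did not overlap in 28, each with the cKO lower, where 15.0% of all genes tested were separated in that direction and 14.1% in the other. Leaving out any single library of the 16 left 21 to 29 genes called lower. Without right ventricle control 2 the count was 29 lower and 2 higher (Mcm2 and Gins3), where 15.2% of all genes fell and 14.0% rose. In 19 of the 26 genes the call was kept in each of these 16 leave-outs, and in 13 of 26 it was kept in each of 9 other settings (Gmnn, Mcm7, Cdc45, Prim1, Pold2, Pole, Pcna, Rfc4, Rfc5, Lig1, Rrm1, Rrm2 and Tk1). On the deposited TPM, tested with limma, 15 genes were called, of which 2 were higher (Mcm2 and Gins3).

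In the cKO right ventricle 4 genes fell, Rrm1, Rfc4, Prim1 and Pole, and all 4 also fell in the left, as 100% of the right ventricle calls and 15.4% of the left. The overlap of calls over all genes was not counted, so this is not shown to be particular to these genes. Rrm1 had 219, 225, 234 and 230 CPM in cKO right ventricles against 297, 246, 266 and 264 CPM in controls, with no overlap (log2 fold change -0.24, SE 0.05, adjusted p = 0.00396 by edgeR). Rfc4 had 26.0, 24.6, 28.1 and 24.6 CPM in cKO right ventricles against 36.6, 27.3, 33.2 and 29.4 CPM in controls (-0.29, SE 0.08, adjusted p = 0.0183), where control 2 lay below the highest cKO library. Prim1 (-0.19, SE 0.06, adjusted p = 0.0442) overlapped as well, with 31.4, 33.1, 36.8 and 30.2 CPM in cKO right ventricles against 41.1, 34.3, 36.9 and 38.1 CPM in controls. Pole had 58.1, 58.6, 59.0 and 58.7 CPM in cKO right ventricles against 67.8, 61.5, 61.8 and 65.1 CPM in controls (-0.13, SE 0.04, adjusted p = 0.0468), the cKO libraries lying close together and below every control. Of the 49 genes, 3 (Rrm1, Pole and Orc1) were lower in every cKO than in every control library and 1 (Gins3) was higher, where 5.14% and 7.61% of all genes were.

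The right ventricle controls differed among themselves. Control 1 was below the controls' mean in 1 of the 49 genes and control 2 in 45, with median deviations of 0.10 and -0.10 on the log2 scale, while the cKO libraries had medians of -0.11, -0.08, -0.04 and -0.08. Without control 2, 13 of 49 genes fell, where 7.12% of all genes fell, and all 13 were among the left ventricle's 29 calls of lower level in that fit (100% and 44.8%). That overlap was not counted over all genes either. The added genes included Gmnn (-0.27, SE 0.05, adjusted p = 0.00106), Rrm2 (-0.28, SE 0.05, adjusted p = 0.00159), Tk1 (-0.24, SE 0.05, adjusted p = 0.00268) and Cdc45 (-0.21, SE 0.05, adjusted p = 0.0055). Mcm10 and Rfc5 were added too, but their TPM went the other way. Mcm10 had 12.8, 16.7, 11.3 and 12.8 TPM in cKO right ventricles against 12.6, 10.3 and 10.9 TPM in controls 1, 3 and 4. Rfc5 had 32.4, 35.9, 37.1 and 35.2 TPM against 33.4, 30.8 and 24.6 TPM. The other added genes had lower mean TPM in cKO. Without control 2 the median log2 fold change of the 49 genes was -0.10. The count was 1 without right ventricle cKO 4 or without right ventricle control 1 (where Gins3 was also called higher), 3 without left ventricle control 1 or right ventricle cKO 3, and 2 without any other single ventricle library. Rrm1 was the gene called in each of these leave-outs.

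Whether the cKO effect differed between the ventricles was tested directly. The median difference (left minus right log2 fold change) was -0.10 over the 49 genes and -0.001 over all genes tested, with 44 of 49 below 0, and 1 gene, Pold2, passed the test, where 0.973% of all genes did with a lower value in the left. Pold2 had 57.0, 56.3, 59.4 and 56.2 CPM in cKO right ventricles against 59.4, 50.1, 58.4 and 60.4 CPM in controls, a log2 fold change of 0.00 (SE 0.05, adjusted p = 0.973) beside -0.33 in the left. The difference was -0.33 (SE 0.07, adjusted p = 0.0294 by edgeR). Its call was lost without left ventricle cKO 2, 3 or 4 or left ventricle control 1, 2 or 4. The same held without right ventricle cKO 2, 3 or 4, with the value between -0.34 and -0.32 in all these fits. The call was also lost with length-scaled counts (-0.37, adjusted p = 0.237) and on TPM (-0.30, adjusted p = 0.365, limma). With same-numbered cKO and control libraries of a ventricle fitted as a block, it was lost too (-0.34, adjusted p = 0.0536 by edgeR). Without right ventricle control 1, 3 genes passed. Without right ventricle control 2 the median difference was -0.06. In that fit 1 gene passed, Pold2 (-0.28, adjusted p = 0.00967 by edgeR), where 236 of 16638 genes passed with a lower value in the left. Gmnn (-0.30, SE 0.09, adjusted p = 0.12), Pcna (-0.23, adjusted p = 0.0998), Mcm7 (-0.22, adjusted p = 0.128) and Lig1 (-0.22, adjusted p = 0.125) were the next by p and did not pass. For the other 48 genes a difference between the ventricles was therefore not shown, although 21 of them passed in the left ventricle and not in the right.

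In whole hearts Rrm2 and Cdt1 fell. Rrm2 had 165, 174 and 175 CPM in cKO hearts against 201, 205 and 205 CPM in controls (log2 fold change -0.25, SE 0.04, adjusted p = 0.0225 by edgeR). Cdt1 had 36.9, 40.5 and 39.2 CPM in cKO hearts against 52.5, 44.7 and 52.0 CPM in controls (-0.36, SE 0.08, adjusted p = 0.0446). Neither pair of groups overlapped. Gmnn had 28.6, 29.0 and 28.3 CPM in cKO hearts against 42.3, 33.8 and 35.5 CPM in controls, apart as well but with widely spread controls (-0.38, SE 0.09, adjusted p = 0.0555). Cdc45 had 28.3, 28.7 and 28.0 CPM in cKO hearts against 31.4, 32.6 and 32.7 CPM in controls (-0.19, SE 0.05, adjusted p = 0.102). In CPM the cKO libraries were all lower than the controls in 18 of 49 genes and all higher in 0, where 12.9% and 13.8% of all genes were. Fewer of the 49 genes were apart in TPM, where Rrm2 had 121, 148 and 125 in cKO hearts against 148, 169 and 168 in controls. Without control 1, 4 genes fell (Rrm2, Cdt1, Gmnn and Cdc45), where 3.25% of all genes fell. The count was 0 without cKO 1, cKO 2, cKO 3 or control 3.

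The left ventricle was lower than the right in both genotypes. Among cKO hearts 37 of 49 genes were lower in the left ventricle and 0 higher, where 18.3% of all genes tested were lower, with a median log2 fold change (left over right) of -0.26. Among control hearts 26 of 49 were lower and 0 higher, where 12.0% of all genes were lower, with a median of -0.16. The medians over all genes tested were 0.02 in cKO and 0.00 in control hearts. With TMM factors all 49 values were below 0 in each genotype, the range being -0.56 to -0.01 in cKO and -0.36 to -0.01 in control hearts. In mean TPM most genes were lower in the left ventricle, but not all. In control hearts Pold1 had 35.5 TPM in left against 32.3 TPM in right ventricles. In cKO hearts Mcm2 had 51.4 TPM in left against 47.8 TPM in right ventricles. These comparisons share libraries with the cKO comparisons above, and no label ties a left ventricle library to a right one of the same animal. In CPM, every left library was below every right one in 38 of 49 genes of cKO hearts, where 18.7% of all genes were, and in 21 of 49 of control hearts, where 11% were.

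**Figure D4:**
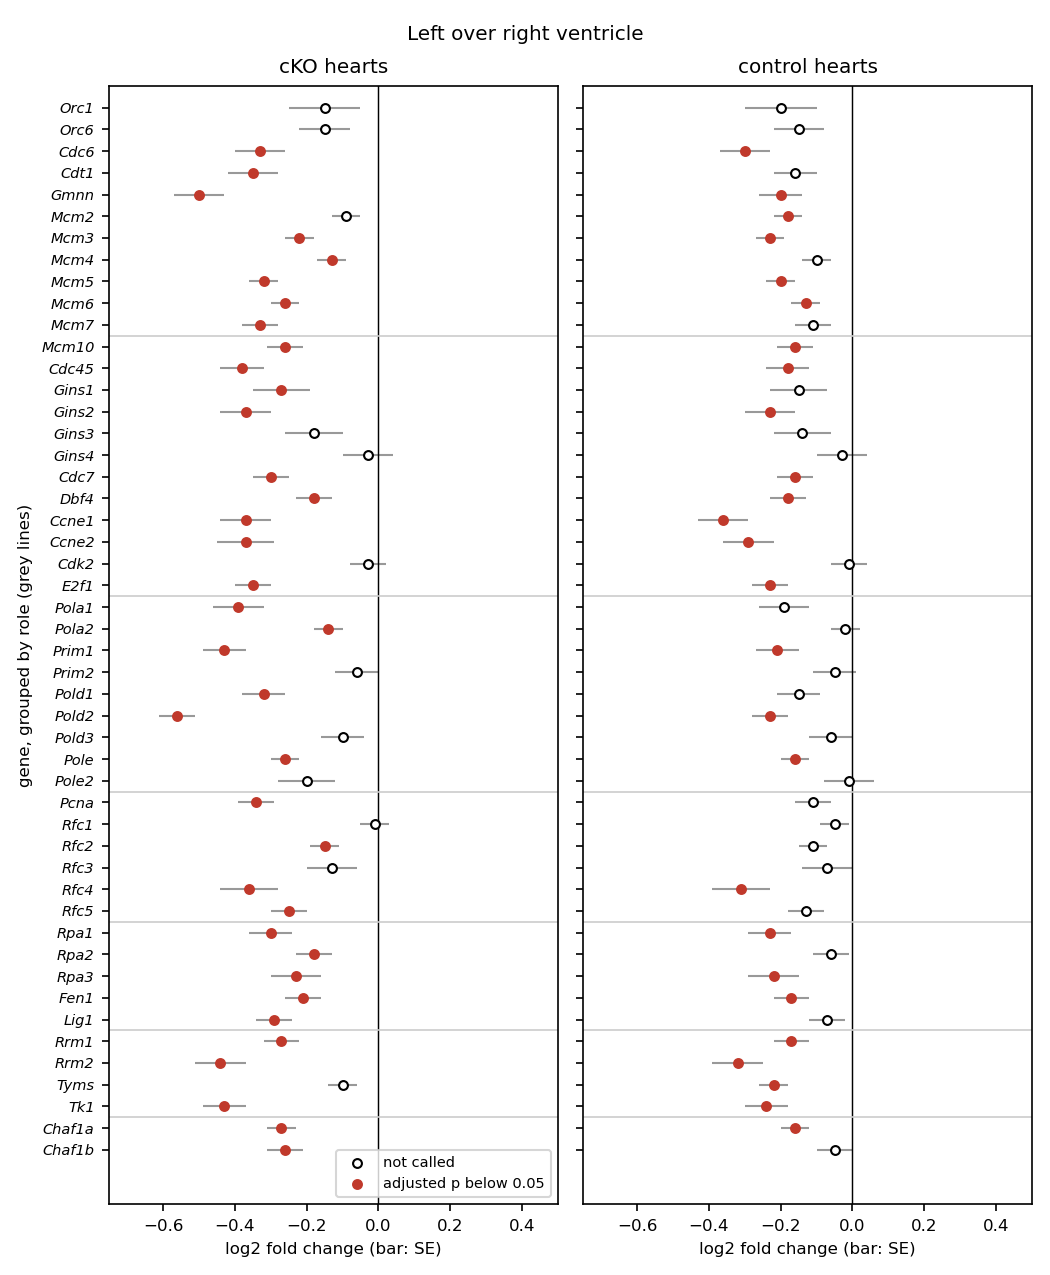
Log2 fold change of each of the 49 genes, left over right ventricle, with its SE (horizontal axis), in cKO and in control hearts. All 49 points are left of 0 in both panels, and 37 passed the test in cKO hearts (filled) against 26 in control hearts.

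Pold2 had the lowest value of left over right in cKO hearts (-0.56, SE 0.05, adjusted p = 6.81e-07 by edgeR), followed by Gmnn (-0.50, SE 0.07, adjusted p = 2.36e-05). In control hearts these were -0.23 (SE 0.05, adjusted p = 0.00373) and -0.20 (SE 0.06, adjusted p = 0.0316). In control hearts cyclin E1 had the lowest value instead. Ccne1 had 25.7, 27.1, 27.9 and 22.2 CPM in left control ventricles against 34.9, 30.2, 33.4 and 33.9 CPM in right ones, without overlap (-0.36, SE 0.07, adjusted p = 0.00174). It kept that gap in cKO hearts, with 27.0, 30.9, 28.5 and 29.6 CPM in left against 34.2, 36.4, 39.8 and 39.3 CPM in right ventricles (-0.37, SE 0.07, adjusted p = 0.000807). The licensing factor Cdc6 (-0.33 in cKO, -0.30 in control hearts), Ccne2 (-0.37 and -0.29), Dbf4 (-0.18 and -0.18) and Mcm3 (-0.22 and -0.23) were likewise lower in the left ventricle of both genotypes, at adjusted p of 0.00101 to 0.0134, and none of them passed the cKO test in either ventricle. Rfc1, Cdk2, Gins4 and Prim2 had values of -0.06 to -0.01 in both and did not pass.

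By role, deoxynucleotide supply had 3 of 4 genes lower in left than in right cKO ventricles and 4 of 4 in control ventricles. For licensing these counts were 8 of 11 in cKO and 6 of 11 in control hearts, for firing 9 of 12 and 8 of 12, and for the polymerases and primase 6 of 9 and 3 of 9. For the clamp and loader they were 4 of 6 and 1 of 6, for single-strand binding and joining 5 of 5 and 3 of 5, and for chromatin assembly 2 of 2 and 1 of 2. The control count rests on the scaling and the libraries. It was 34 without right ventricle control 2 (where 14.8% of all genes were lower), 16 without right ventricle control 1 or left ventricle control 4, 14 with library totals and 2 on TPM, with 0 higher in each. In cKO hearts the count was 39 without right ventricle control 2 (where 19.4% of all genes were lower), 35 to 39 when each library was left out in turn, 31 with library totals and 13 on TPM. With library totals the split of all genes tested also moved, to 3931 higher and 2004 lower in cKO hearts, against 2387 and 3011 with TMM factors, and to 2290 and 1294 in control hearts, against 1483 and 1979.

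Within groups the genes tended to vary together from library to library. Over the 16 ventricle libraries, after each group's mean was taken away, the median correlation between 2 of the genes was 0.394 over 1176 pairs, and 88.5% of pairs lay above 0. Pcna had the highest mean correlation with the other genes (0.532), and Gins4 (-0.188) and Orc1 (-0.0194) the lowest. The genes of a library share its depth, scaling and dissection, so this is a description.

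By calls, related gene lists moved with the 49 genes in the left ventricle, where 13.4% of all genes tested fell and 12.3% rose. Of 24 other replication genes, 10 fell and 0 rose (median -0.14), among them Rnaseh2a, a subunit of the nuclease that removes RNA primers (-0.41, SE 0.06, adjusted p = 8.3e-05), and the resection nuclease Exo1 (-0.26, SE 0.05, adjusted p = 0.00092). Of 22 other S-phase and E2F-regulated genes, 12 fell and 0 rose (median -0.16), led by Uhrf1, which guides maintenance methylation (-0.39, SE 0.04, adjusted p = 6.19e-06), and cyclin A2, Ccna2 (-0.29, SE 0.05, adjusted p = 0.000659). Of 25 mitosis genes, 23 fell and 0 rose (median -0.24), led by the checkpoint kinase Bub1b (-0.42, SE 0.05, adjusted p = 5.08e-06) and the proliferation marker Mki67 (-0.30, SE 0.04, adjusted p = 2.98e-05). The summed TPM of the 24 other replication genes overlapped between groups (594.1 to 640.4 in cKO, 616.9 to 646.7 in control left ventricles). So did that of the 22 other S-phase genes (630.7 to 714.7 and 710.7 to 747.6). That of the mitosis genes did not (1157 to 1318 and 1346 to 1518). In the right ventricle 1 of 24, 2 of 22 and 4 of 25 of these lists fell, where 4.19% of all genes fell. Without right ventricle control 2 these counts were 1, 4 and 20, where 7.12% of all genes fell. The 1 of 24 lay near or below the share of all genes. In whole hearts 0 of 24 and 0 of 22 fell, and 1 of 25 mitosis genes, Aurka (-0.36, SE 0.06, adjusted p = 0.0199), where 2.07% of all genes fell. Without whole heart control 1 the count of mitosis genes was 5, where 3.25% of all genes fell.

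The list of D cyclins, their kinases, CDK inhibitors, pocket proteins and 2 further E2F factors differed in direction. Of its 14 genes 5 rose in the left ventricle and 0 fell, where 12.3% of all genes rose, and the median was -0.02. Without right ventricle control 2, 5 rose and 1 fell. Ccnd2, cyclin D2, rose by 0.65 in left ventricles (SE 0.05, adjusted p = 1.06e-07) and by 0.96 in right ventricles (SE 0.05, adjusted p = 2.34e-09) on the log2 scale. The cell cycle kinase inhibitors Cdkn1c and Cdkn1a rose as well, Cdkn1c by 0.43 (SE 0.07, adjusted p = 0.00018) and Cdkn1a by 0.41 (SE 0.10, adjusted p = 0.0042) in the left ventricle.

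Some cell type markers also differed in the same libraries. In left ventricles 13.4% of all genes tested fell and 12.3% rose. Of the cardiomyocyte markers 6 of 8 fell and 0 rose, with a summed level of 11110 to 11590 TPM in cKO against 13210 to 13960 TPM in controls. There 6 of 8 endothelial and endocardial markers rose (479.5 to 535.9 TPM in cKO against 388.4 to 402.5 TPM in controls), and 4 of 6 epicardial markers rose (155.6 to 165.7 against 108.7 to 118.0 TPM). Of the erythroid markers 1 of 8 rose (30830 to 76660 against 21510 to 40950 TPM), of the macrophage and blood cell markers 2 of 6 (143.3 to 175.6 against 71.77 to 109.2 TPM), and of the cushion and fibroblast markers 1 of 8 (893.8 to 1076 against 673.1 to 1051 TPM). The erythroid and cushion counts were near the share of all genes that rose. Neural crest and neuronal markers had 0 of 3 tested called. Without right ventricle control 2, 2335 of 16638 genes rose and 2525 fell in left ventricles. The left ventricle marker counts then were 5 of 6 epicardial, 2 of 8 cushion and 3 of 6 macrophage markers higher and 1 of 3 neural crest markers lower. Their part in the left ventricle result was not tested.

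In right ventricles 4.19% of all genes tested fell and 6.12% rose. There 0 of 8 cardiomyocyte markers passed the test (12360 to 13920 TPM in cKO against 13440 to 14270 TPM in controls). Of the endothelial and endocardial markers 2 of 8 rose (400.3 to 433.4 against 364.3 to 388.2 TPM), of the epicardial markers 1 of 6 (98.55 to 121.8 against 86.44 to 124.1 TPM) and of the erythroid markers 5 of 8 (26720 to 50480 against 10670 to 26560 TPM). Without right ventricle control 2, 7.12% of all genes fell and 1233 of 16638 rose. In that fit, where 13 replication genes fell, 4 of 8 cardiomyocyte markers fell too, and 4 of 8 endothelial and 1 of 8 erythroid markers rose. Their part in that count was not tested. In whole hearts 2 of 8 cardiomyocyte markers fell and 2 of 8 endothelial and endocardial markers rose, where 2.07% of all genes fell and 1.96% rose. Without whole heart control 1 these counts were 3 and 3, where 3.25% of all genes fell and 649 of 19762 rose. The summed level of the 49 replication genes was 1647 to 1858 TPM in cKO left ventricles against 1904 to 1971 TPM in controls, and 1927 to 1976 TPM in cKO right ventricles against 2029 to 2179 TPM in controls, without overlap in either ventricle. In whole hearts it was 2410 to 2537 TPM in cKO against 2522 to 2707 TPM in controls, with overlap.

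**Figure D5:**
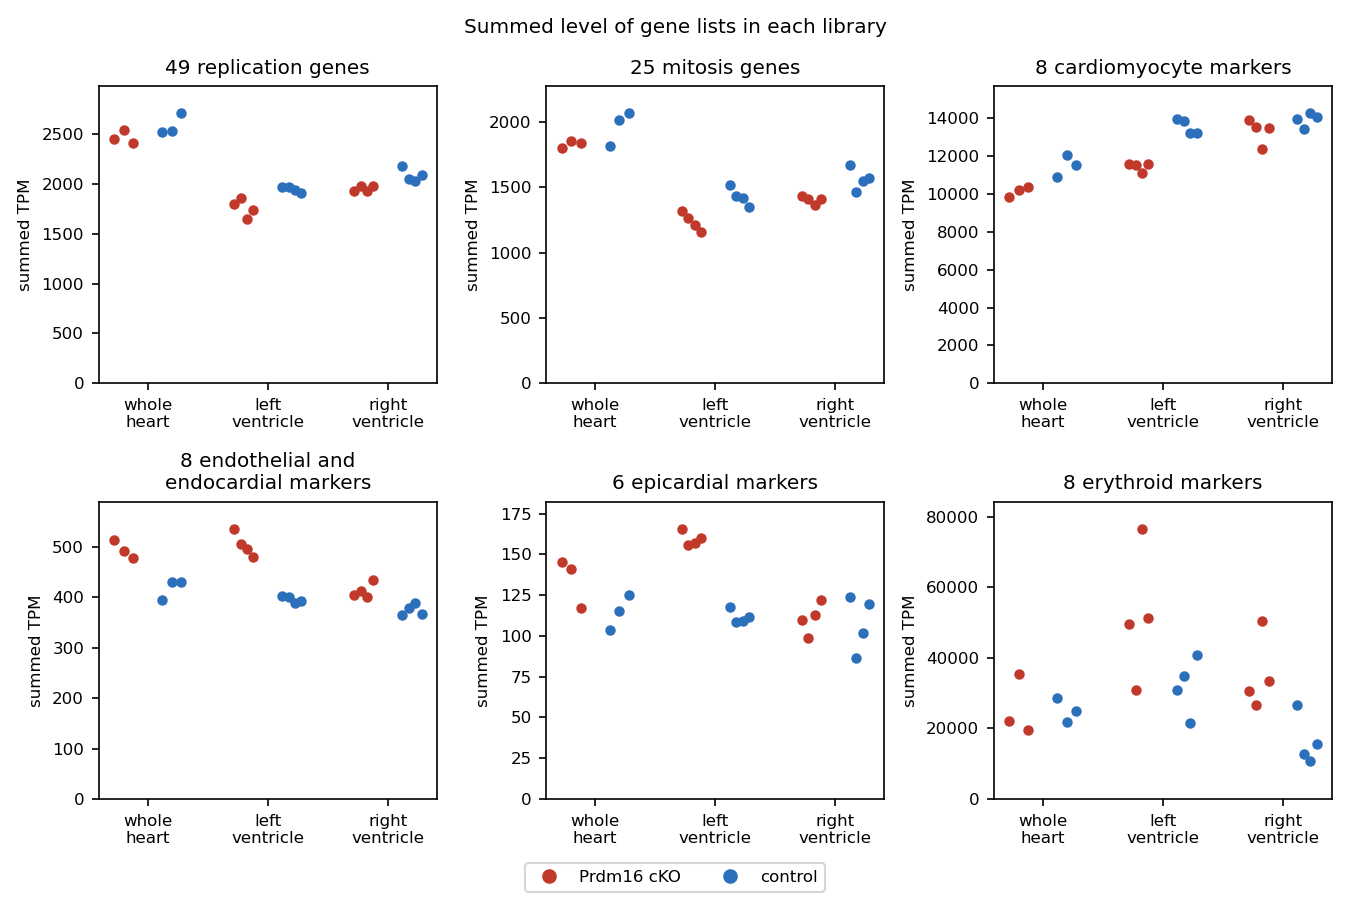
Summed TPM of the 49 replication genes, 25 mitosis genes and 4 lists of cell type markers in each library (points), cKO in red and control in blue, in the whole heart, left ventricle and right ventricle. In the left ventricle the cKO points lie lower for replication genes (1647 to 1858 against 1904 to 1971 TPM), mitosis genes and cardiomyocyte markers, and higher for endothelial and epicardial markers.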

How the data were processed

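RNA was sequenced from whole hearts and dissected ventricles with a stranded kit, per the labels' protocols, at RIN 6.1 to 10. The authors quantified transcripts with Salmon 1.2.1 against GRCm38.p6 (mm10), per the submitters' processing notes, which also name DESeq2 1.22.2. The deposited values used are estimated counts and TPM per transcript; the strand setting is not given in the sources used here. Of 140658 transcripts, 140137 matched GENCODE M21 and were summed to 54356 genes, and the 521 unmatched held at most 0.204% of reads. Estimated counts were rounded.

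Whole hearts (19160 genes after edgeR's filter on low counts) and the 16 ventricle libraries (16448 genes, 4 groups in 1 model) were fitted separately in R 4.3.3 with edgeR 4.0.16 (TMM factors, quasi-likelihood F test), with Benjamini-Hochberg adjustment over all genes and a threshold of 0.05. Alternatives used limma 3.58.1 on log2(TPM + 1), DESeq2 1.42.0, other scalings and filters, a replicate block and leaving out each library. The fits were tested on simulated data. Full values were given for the 10 members with the smallest p in the left ventricle, for those called in whole hearts or between ventricles, and for those called against the majority; others named with values were chosen after their values were seen. The members and lists were chosen with earlier results of these data known. No label ties same-numbered libraries together and their deviations did not all correlate, so the tests reported used no block. Depth was 14508722 to 62004017 reads.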

Additional observations from a re-analysis of the deposited data

Results flagged for a closer look

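Among 52 groups of 4 libraries (CPM of 12 genes given in full and the summed TPM of all 49), 2 held a library far from the other 3, and chance gives about 1 in 20. Gmnn in right ventricle control 2 had 36.9 CPM, against 44.7, 45.9 and 46.0 CPM in the other right ventricle controls, a gap of 0.857 of the group's range. Cdt1 in left ventricle cKO 2 had 44.4 CPM, against 38.9, 39.2 and 39.8 CPM in the other cKO left ventricles, a gap of 0.836 of the range.

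The cKO effect on Pold2 was called different between the ventricles, by -0.33 on the log2 scale (left minus right, SE 0.07, adjusted p = 0.0294 by edgeR). That call was lost in 9 of the 16 fits that left out a library. It was lost as well with length-scaled counts (adjusted p = 0.237), on TPM (0.365, limma) and with the replicate block (0.0536).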

How the results depend on the processing

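The median of the 49 genes stayed below 0 in each comparison under every setting run, but this gives its sign and not its size. In whole hearts the mean TPM was lower in cKO for most of the 49 genes but higher for many. Examples of higher means were Lig1 (60.3 TPM in cKO against 56.2 in controls) and Mcm2 (48.7 against 45.2). With the replicate block, 0 genes were called in whole hearts, 23 in the left ventricle, 2 in the right and 0 between the ventricles, and 28 in control and 38 in cKO hearts for left over right. With the block the Pold2 difference between ventricles was -0.34 (adjusted p = 0.0536). Same-number correlations of deviations ran from -0.116 to 0.237. Among cKO left and right ventricles they were 0.0528 to 0.237 and each library correlated best with its own number, a hint from the data that the labels do not state. DESeq2 called 4 in whole hearts, 7 in the right ventricle and 2 between ventricles. Library totals called 7 in the right ventricle, 2 higher in the left, and 14 for left over right in control hearts. No filter gave 3 in whole hearts and 2 in the right ventricle, where fitting only the groups compared gave 1. Length-scaled counts gave 0 in whole hearts, 1 in the right ventricle, 0 between ventricles, and 7 for left over right in control hearts. On TPM the counts were 0 in whole hearts, 15 in the left ventricle (2 of them higher), 2 in the right, 0 between ventricles, and 2 in control and 13 in cKO hearts for left over right. Reversal of sign was checked only for genes called with TMM factors. Among these, Pola2, left over right in cKO hearts, reversed to 0.05 on TPM (adjusted p = 0.685, limma). The cause was not tested. Leaving out each library gave 0 to 4 in whole hearts, 21 to 31 in the left ventricle (0 to 2 of them higher), 1 to 13 in the right (0 to 1 of them higher, 1 without right ventricle control 1), 0 to 3 between ventricles, and 16 to 34 in control and 35 to 39 in cKO hearts for left over right. Groups of 3 or 4 libraries limit the precision of each value.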
